A study of Mus musculus with 6 samples.

Results

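AMPK and mTOR are the kinases through which cells read their energy and nutrient supply. Here 10 genes of that system, chosen by symbol, were followed in the mouse substantia nigra under 2 diets: Prkaa1, Prkaa2, Mtor, Rptor, Tsc1, Tsc2, Ddit4, Sesn1, Sesn2 and Deptor. All 10 were found among the 19251 genes of the deposited count table, and all 10 were among the 19109 genes tested. The study asked how intermittent fasting affects the midbrain of mice that model Parkinson's disease. Polyadenylated RNA was sequenced from the substantia nigra of C57BL/6 mice in 3 libraries from the ad libitum group, which had free access to food, and 3 from the intermittent fasting group. Every library of both groups came from mice labelled rAAV-A53T-aSynuclein, in which a recombinant adeno-associated virus carries a mutant form of alpha-synuclein, so the comparison is between diets within the model and holds no mice without the vector. Fasting lasted 24 hours, began 2 hours before lights off on 3 days a week, started 2 weeks after surgery and went on for 10 weeks. Mice of the ad libitum group were moved between cages in the same way. The sources used here give neither the promoter that drives the transgene, nor the age and sex of the mice, nor the interval between the last fast and tissue collection. The labels do not state that each library came from a separate mouse, so the p-values measure only the spread between these libraries.

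AMPK is a complex of a catalytic alpha subunit, encoded by Prkaa1 or Prkaa2, with a beta and a gamma subunit, and it is switched on when ATP runs low. It restrains the mTORC1 complex, which holds the kinase mTOR and its adaptor raptor (Rptor) and drives protein synthesis and growth when amino acids and growth factors are plentiful. The TSC complex (Tsc1, Tsc2) turns mTORC1 off through the small GTPase Rheb, the stress-induced protein REDD1 (Ddit4) acts through TSC, the sestrins (Sesn1, Sesn2) hold mTORC1 back when leucine is scarce or cells are stressed, and Deptor binds mTOR and inhibits it. Much of this control is by phosphorylation and by binding of amino acids, which RNA counts do not measure.

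Ddit4 and Sesn1, the members with the smallest p-values, are both genes whose transcription is known to respond to stress signals, so their promoters are shown. RefSeq windows from 250 bases before to 50 bases after each transcription start, on GRCm38.p6, were found for 9 of the 10 members, with 10 windows in all because Sesn1 has 2 starts. Deptor has no entry. Both strands were searched for TTGCATC (the core of the element that ATF4 binds), AGAACA (a piece of the glucocorticoid response element), GTAAACA (bound by FOXO factors) and CACGTG (the E-box), none of which contains another. Capitals mark a match. The Ddit4 window is chr10:59951721-59952020 on the minus strand, and the Sesn1 windows are chr10:41810324-41810623 (upstream start) and chr10:41887189-41887488 (downstream start), both on the plus strand.
Ddit4: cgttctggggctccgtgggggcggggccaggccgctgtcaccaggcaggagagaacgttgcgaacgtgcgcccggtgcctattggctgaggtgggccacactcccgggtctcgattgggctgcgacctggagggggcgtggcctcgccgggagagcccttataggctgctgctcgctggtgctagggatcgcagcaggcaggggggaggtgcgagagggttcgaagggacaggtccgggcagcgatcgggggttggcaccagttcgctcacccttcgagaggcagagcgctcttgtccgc
Sesn1, upstream start: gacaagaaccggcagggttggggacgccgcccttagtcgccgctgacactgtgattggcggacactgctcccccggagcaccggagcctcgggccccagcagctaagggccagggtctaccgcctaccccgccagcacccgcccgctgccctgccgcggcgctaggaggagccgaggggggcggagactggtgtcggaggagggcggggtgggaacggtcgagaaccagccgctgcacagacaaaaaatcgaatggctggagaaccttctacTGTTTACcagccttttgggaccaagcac
Sesn1, downstream start: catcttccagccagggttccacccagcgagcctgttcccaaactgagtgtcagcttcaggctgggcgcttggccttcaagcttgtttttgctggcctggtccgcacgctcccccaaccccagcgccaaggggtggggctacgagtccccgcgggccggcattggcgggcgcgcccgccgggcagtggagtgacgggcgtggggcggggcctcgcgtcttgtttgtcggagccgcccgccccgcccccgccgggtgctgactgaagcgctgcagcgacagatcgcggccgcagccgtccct
The single match in the 10 windows was the FOXO motif in the upstream Sesn1 window, read on the minus strand and beginning at base 23 after the start. This motif occurs in 3.65% of 32851 promoter windows of that length, while TTGCATC occurs in 2.53%, AGAACA in 19% and CACGTG in 7.15%. A match describes the letters of a window and is not evidence that a factor binds there. The absence of a match in these short windows is likewise not evidence that a factor does not act on the gene.

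No member passed the test of fasting against ad libitum feeding. With the quasi-likelihood test of edgeR and adjustment over all genes, 0 of 10 members had an adjusted p below 0.05, where 0.497% of all tested genes did, and the smallest adjusted p among the members was 0.106, for Ddit4. At an unadjusted p below 0.05 there were 2 members, Ddit4 and Sesn1, against a background of 20.4% of genes. DESeq2, run without the filter on low counts, called 1 member, Ddit4, and 7.4% of the genes to which it gave an adjusted p. No member differed by more than 1.5-fold, which 10.7% of tested genes did. All 10 log2 fold changes, given throughout as fasting minus ad libitum, were above 0, with a median of 0.08 against -0.005 over all genes, of which 49.1% were above 0. The sign of the smaller values is not stable, however, and 8 of 10 were above 0 when ad libitum replicate 2 was left out, with a median of 0.03. The same count of 8 was reached without fasting replicate 1 or fasting replicate 2. The groups did not overlap for 3 members, Ddit4, Sesn1 and Mtor, and all 3 were higher under fasting. Of all genes, 27.5% did not overlap, 12.5% higher and 15% lower.

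**Figure D1:**
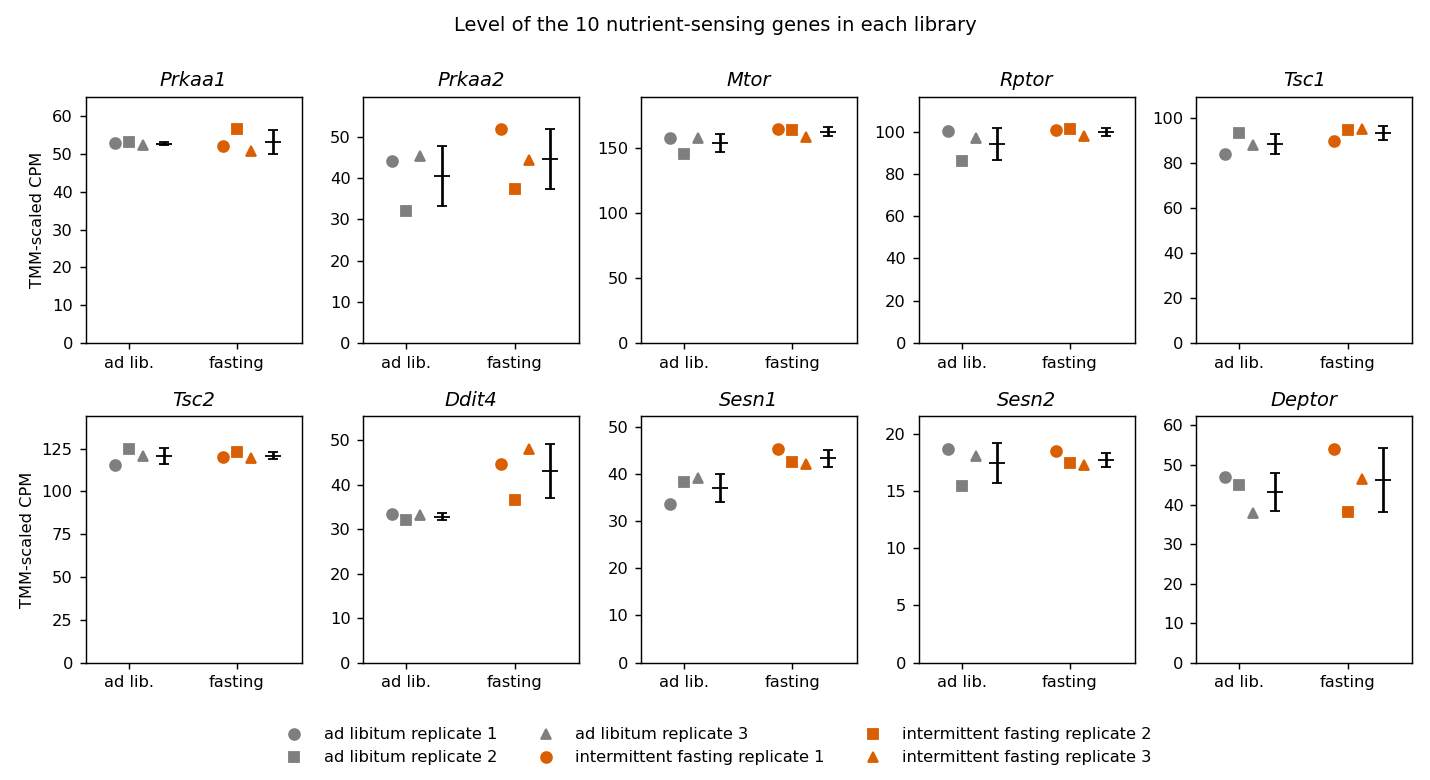
TMM-scaled CPM (vertical axis, from 0) of each of the 10 genes in the 3 ad libitum and 3 fasting libraries, with the symbol shape giving the replicate number and the bars the mean and SD of each group. Ddit4 and Sesn1 lie higher in all fasting libraries than in any ad libitum library, and Prkaa2 and Deptor spread widely within both diets.

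Ad libitum replicate 2 stands apart from the other libraries and bears on several of these values. Its summed level of 4 cholinergic markers was 86.6 CPM, against 5.99 to 16.3 CPM in the other 5 libraries. Its summed level of 5 hypothalamic markers was 513 CPM, against 25.7 and 4.08 CPM in ad libitum replicates 1 and 3. The fasting replicates were at 108, 145 and 130 CPM for these markers. In ad libitum replicate 2 the hypothalamic sum was mostly Pmch, at 432 CPM. Neither set was uniform. Oxt and Avp were highest in fasting replicate 1, at 33.4 and 9.60 CPM, and the cholinergic marker Isl1 in fasting replicate 3, at 11.9 CPM. The other markers of both sets were highest in ad libitum replicate 2. Ad libitum replicate 3 had the highest sum of 5 erythroid markers, 1736 CPM against 254 to 657 CPM in the other 5 libraries. It also had the highest dopaminergic sum. Total counts ran from 42990234 to 48179706 per library. The 8 dopaminergic markers, which include Th and Slc6a3, were detected in every library and summed to 506 to 1484 CPM. RNA of dopaminergic neurons was therefore present throughout, at unequal levels. Oligodendrocyte markers (10 of 10 measured) summed to 13811 to 18777 CPM ad libitum and 9687 to 12168 CPM under fasting, and microglial markers (10 of 10) to 409 to 556 and 314 to 322 CPM, with no overlap between diets. Astrocyte markers (8 of 8) also did not overlap, at 3837 to 4795 and 3505 to 3734 CPM. They were not uniform, with log2 fold changes of -1.51 for Gfap and -1.01 for Aqp4. Slc1a2 was at -0.10, Aldoc at -0.009 and Slc1a3 at 0.18. The 8 pan-neuronal markers overlapped between diets, at 5034 to 6684 and 5926 to 6268 CPM. In bulk tissue, fewer cells of a type and less RNA per cell cannot be told apart. The part of these marker differences in the values below was not tested.

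Ddit4 (ENSMUSG00000020108), which encodes the mTORC1 inhibitor REDD1, had the largest difference among the members. Its level was 33.4, 32.0 and 33.2 CPM in ad libitum replicates 1, 2 and 3 and 44.6, 36.5 and 48.1 CPM in fasting replicates 1, 2 and 3. All fasting libraries were above all ad libitum libraries, but fasting replicate 2 was only slightly so, and the coefficient of variation was 2.33% ad libitum and 13.9% under fasting. The means were 32.8 ± 0.765 and 43.1 ± 5.98 CPM (SD, n = 3 each), a 1.31-fold difference with a log2 fold change of 0.39 and an SE of 0.10 (edgeR adjusted p = 0.106). The 95% interval for this gene taken alone ran from 1.11-fold to 1.55-fold. DESeq2 gave the same log2 fold change of 0.39 and an adjusted p of 0.0217. Leaving out fasting replicate 2 gave 0.50 (edgeR adjusted p = 0.0563), and leaving out fasting replicate 3 gave 0.30 (edgeR adjusted p = 0.332), while without ad libitum replicate 2 it was 0.37.

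Sesn1 (ENSMUSG00000038332), a sestrin gene known as a target of p53 and FOXO factors, was second by p-value. It stood at 33.6, 38.3 and 39.2 CPM in the ad libitum replicates and at 45.3, 42.4 and 42.0 CPM in the fasting replicates. The groups did not overlap, and ad libitum replicate 1 was the lowest library. The log2 fold change was 0.22 with an SE of 0.07, or 1.17-fold with a 95% interval of 1.04 to 1.32 for the single gene (edgeR adjusted p = 0.160). Without ad libitum replicate 1 it was 0.16, and without ad libitum replicate 2 it was 0.24. DESeq2 did not call it (adjusted p = 0.134).

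Sesn2 (ENSMUSG00000028893), the paralog of Sesn1 that is induced through ATF4, did not show the same pattern. Its levels were 18.7, 15.4 and 18.1 CPM ad libitum against 18.4, 17.4 and 17.3 CPM under fasting, and the fasting values lay within the ad libitum range. The log2 fold change was 0.03 (SE 0.09), with a 95% interval of 0.883-fold to 1.18-fold. Leaving out ad libitum replicate 2 gave -0.06, and leaving out ad libitum replicate 1 gave 0.08. The ratio of Sesn2 to Sesn1 counts, which does not depend on scaling between libraries, was 0.556, 0.402 and 0.462 ad libitum and 0.407, 0.411 and 0.411 under fasting, overlapping between diets (difference in log2 ratio -0.19, exact two-sided permutation p = 0.4). Sesn3, the third sestrin gene, was at a log2 fold change of -0.06 (adjusted p = 0.804 by edgeR), and its ratio to Sesn1 separated the diets. Sesn3 to Sesn1 was 4.94, 6.01 and 5.13 ad libitum and 4.24, 4.43 and 4.59 under fasting, a difference of -0.27 in log2 ratio (exact two-sided permutation p = 0.1, the smallest that 3 libraries against 3 allow, and 0.35 adjusted over the 7 ratios compared). Without ad libitum replicate 2 this difference was -0.19.

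**Figure D2:**
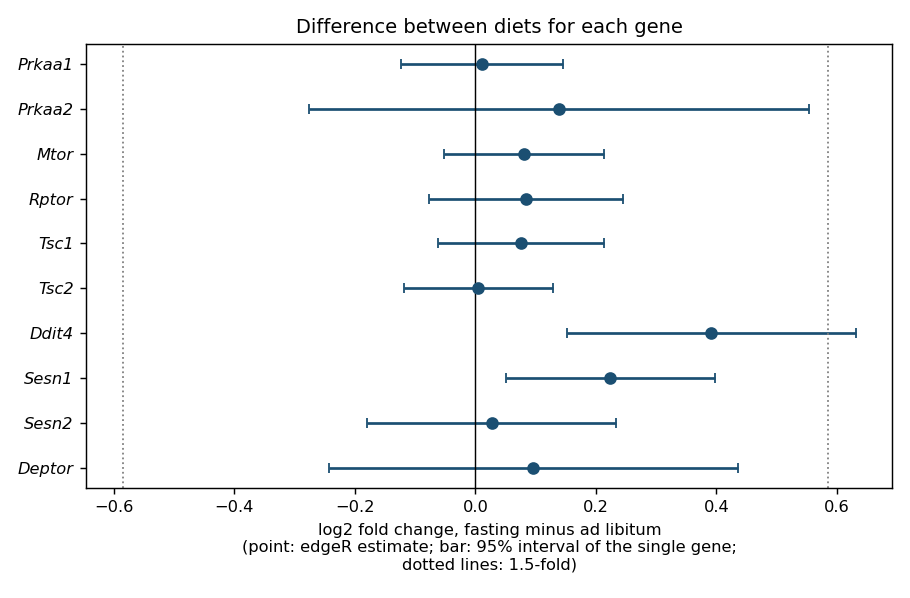
Log2 fold change of each gene, fasting minus ad libitum (horizontal axis), with points for the edgeR estimate over 3 against 3 libraries, bars for the 95% interval of the single gene, not adjusted over genes, and dotted lines at 1.5-fold. Only the intervals of Ddit4 and Sesn1 lie wholly above 0, and only that of Ddit4, which reaches 1.55-fold, crosses a dotted line.

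The genes for the AMPK catalytic subunits were close to level between diets on average but differed in how much they varied. Prkaa1 (ENSMUSG00000050697), for alpha1, was at 52.9, 53.1 and 52.4 CPM ad libitum against 52.3, 56.7 and 50.7 CPM under fasting. Those values overlapped, and the log2 fold change was 0.01 (SE 0.06), with a 95% interval of 0.918-fold to 1.11-fold. Prkaa2 (ENSMUSG00000028518), for alpha2, the form prominent in neurons and muscle, was at 44.2, 32.1 and 45.4 CPM ad libitum against 52.0, 37.4 and 44.5 CPM under fasting. It was lowest in replicate 2 of each diet and highest in fasting replicate 1, with a coefficient of variation of 18.1% ad libitum and 16.3% under fasting. Its log2 fold change of 0.14 (SE 0.17, adjusted p = 0.690 by edgeR) was -0.01 without ad libitum replicate 2, and its 95% interval of 0.826-fold to 1.47-fold was the widest of the 10. The ratio of Prkaa2 to Prkaa1 counts was 0.834, 0.604 and 0.866 ad libitum and 0.995, 0.660 and 0.876 under fasting (difference in log2 ratio 0.13, exact two-sided permutation p = 0.5). The diets overlapped in this ratio, and without ad libitum replicate 2 the difference was -0.03.

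Within mTORC1, Mtor and Rptor kept a nearly fixed ratio. Mtor (ENSMUSG00000028991), the kinase, was at 158, 146 and 158 CPM ad libitum against 165, 164 and 159 CPM under fasting. The groups did not overlap, by less than 1% of the level between the nearest libraries, and the log2 fold change was 0.08 (SE 0.06, adjusted p = 0.464 by edgeR). Without ad libitum replicate 2, the lowest library, it was 0.04. Rptor (ENSMUSG00000025583), the adaptor that brings substrates to mTOR, was at 100.2, 85.9 and 96.8 CPM ad libitum against 100.8, 101 and 97.7 CPM under fasting. It overlapped between diets at a log2 fold change of 0.08 (SE 0.07), which was 0.02 without ad libitum replicate 2, again the lowest library. The ratio of Rptor to Mtor lay between 0.589 and 0.634 in all 6 libraries, with a difference of 0.01 in log2 ratio between diets (exact two-sided permutation p = 0.8). Deptor, described next, had a ratio to Mtor of 0.297, 0.308 and 0.240 ad libitum and of 0.328, 0.232 and 0.292 under fasting (exact two-sided permutation p = 1). Rictor, which takes the place of raptor in the second complex, mTORC2, had a ratio to Rptor of 0.892, 1.03 and 0.870 ad libitum and 0.914, 0.870 and 0.911 under fasting, with no separation.

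Deptor (ENSMUSG00000022419), the inhibitor that binds mTOR in both complexes, varied more within a diet than between them. It was at 46.9, 45.0 and 37.8 CPM ad libitum against 54.2, 38.2 and 46.4 CPM under fasting. Fasting replicate 1 was the highest library, and ad libitum replicate 3 and fasting replicate 2 were the lowest. The log2 fold change was 0.10 (SE 0.14, adjusted p = 0.739 by edgeR), with a 95% interval of 0.845-fold to 1.35-fold, and it was -0.04 without fasting replicate 1. The 2 lowest libraries for Deptor were also those with the highest summed dopaminergic markers, 1484 CPM in ad libitum replicate 3 and 1034 CPM in fasting replicate 2, against 506 to 587 CPM in the other 4, and the part of this in the Deptor values was not tested. Of the 31-base words of Deptor transcripts, 4.64% occur on the opposite strand in other genes, mainly Gm9920. On the same strand, 2.35% occur in other genes, mainly Gm11902.

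**Figure D3:**
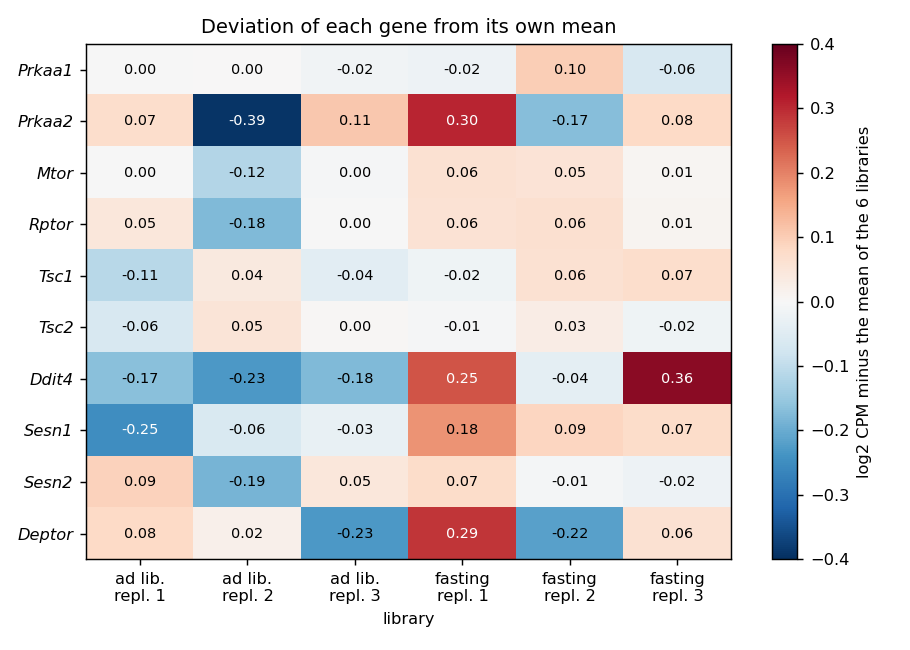
Log2 CPM of each gene minus its mean over the 6 libraries, printed in each cell, with libraries in columns and genes in rows, red above and blue below the gene's mean. Ad libitum replicate 2 holds the lowest value of 5 genes (Prkaa2, Mtor, Rptor, Ddit4 and Sesn2) and fasting replicate 1 the highest value of 4.

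The genes of the TSC complex were among the steadiest members. Tsc1 (ENSMUSG00000026812), which encodes hamartin, was at 84.1, 93.2 and 88.0 CPM ad libitum against 89.7, 94.7 and 95.2 CPM under fasting, with overlap and a log2 fold change of 0.08 (SE 0.06). Tsc2 (ENSMUSG00000002496), which encodes tuberin, the subunit that acts on Rheb, was at 116, 125 and 121 CPM ad libitum against 120, 123 and 119 CPM under fasting. The fasting values lay within the ad libitum range, and the log2 fold change was 0.0049 (SE 0.05), with a 95% interval of 0.921-fold to 1.09-fold. It went to -0.02 without ad libitum replicate 1 and to -0.0012 with upper-quartile scaling. The 3' side of Tsc2 faces Pkd1, and 9.59% of its 31-base words occur on the opposite strand in other genes, mainly Pkd1. Its value is therefore less certain if counting did not use strand, which the sources used here do not state. On the same strand, 3.05% of its words occur in other genes, mainly Gm38110. The ratio of Tsc2 to Tsc1 was 1.37, 1.34 and 1.37 ad libitum and 1.34, 1.30 and 1.25 under fasting. It was lower in every fasting library, narrowly so in fasting replicate 1, with a difference of -0.07 in log2 ratio (exact two-sided permutation p = 0.1, and 0.35 adjusted over the 7 ratios).

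For 6 members the data bound the difference tightly. The single-gene 95% intervals of Prkaa1, Mtor, Rptor, Tsc1, Tsc2 and Sesn2 all lay between 0.883-fold and 1.19-fold. Those of Prkaa2 and Deptor were wider, from 0.826-fold to 1.47-fold and from 0.845-fold to 1.35-fold. None of these intervals is adjusted for the number of genes.

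**Figure D4:**
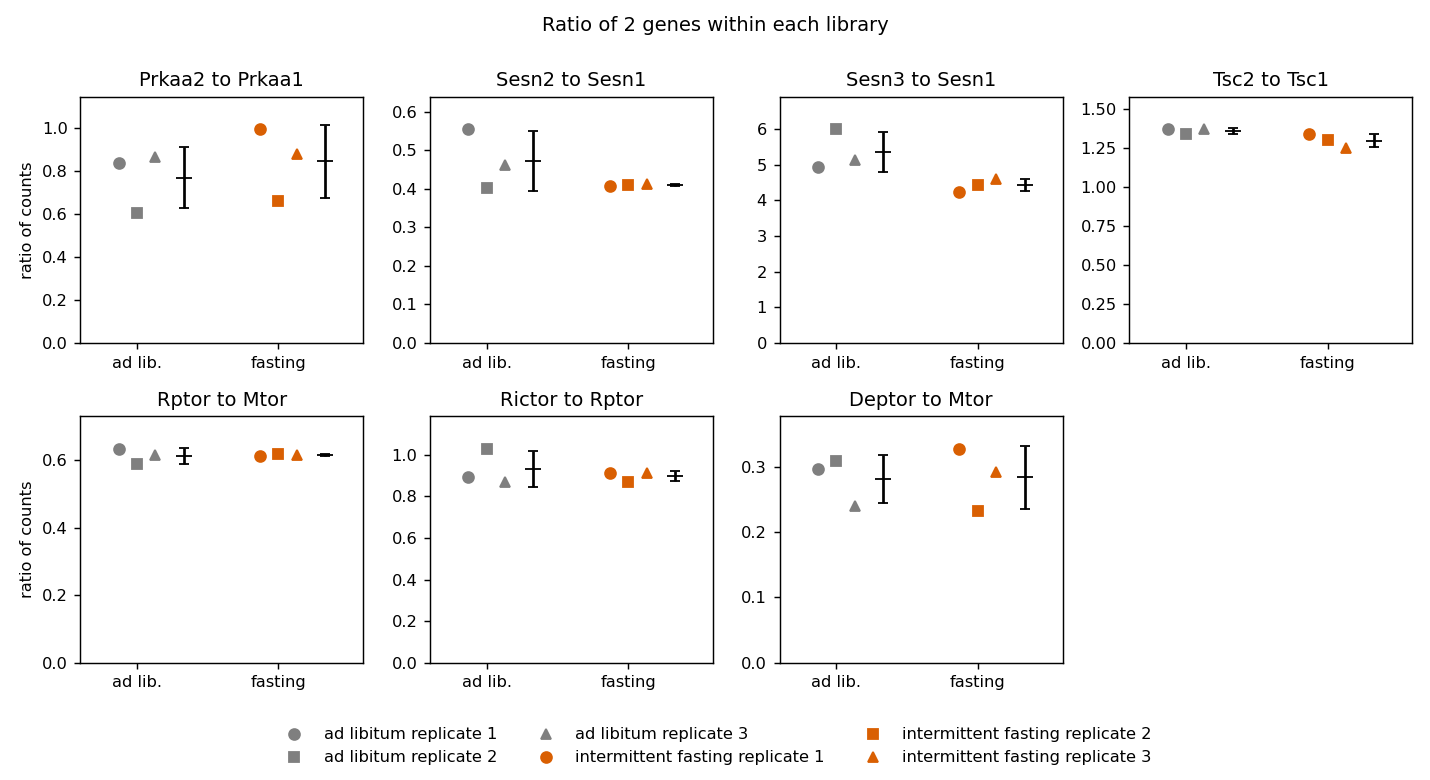
Ratio of the counts of 2 genes within each library (vertical axis, from 0), by diet, with symbol shape for the replicate number and bars for the mean and SD of each group. The diets separate for Sesn3 to Sesn1 and for Tsc2 to Tsc1, and the ratio of Rptor to Mtor stays between 0.589 and 0.634.

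Levels of the members were also set against each other per length, as CPM per kilobase of the longest coding transcript in GENCODE M21, averaged over the 6 libraries. Ddit4 had the highest level at 21.6, followed by Tsc2 at 19.3 and Mtor at 18.5, and the ranges of these neighbours over libraries overlapped. Rptor came next at 14.7 CPM per kilobase, and its range overlapped neither that of Mtor nor that of Tsc1. Tsc1, Prkaa1 and Sesn1 followed at 11.8, 11.4 and 10.5 CPM per kilobase, each overlapping the next. Prkaa2, Deptor and Sesn2 formed the lowest step at 5.34, 5.23 and 5.05, with overlapping ranges, and the range of Prkaa2 did not reach that of Sesn1. This order depends on the transcript taken as the length: with the median length of the coding transcripts, Mtor was first at 33.1 CPM per kilobase, followed by Rptor at 27.3, Tsc2 at 22.2, Ddit4 at 21.6 and Deptor at 13.6.

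For Ddit4 and Sesn1, the genes of most similar profile over the 6 libraries were found among 15552 other genes with a mean of at least 1 CPM, by the root mean square difference of log2 CPM centred on each gene's own mean. The 3 nearest to Ddit4 were Pde4c (0.055), a cAMP phosphodiesterase, Ccdc173 (0.055) and Itih5 (0.056), a gene of the inter-alpha-trypsin inhibitor heavy chain family. Itih5 was at 63.6, 62.9 and 60.5 CPM ad libitum against 87.2, 70.3 and 85.0 CPM under fasting, so that fasting replicate 2 was again the lowest of its group. The 3 nearest to Sesn1 were Nsdhl (0.023), an enzyme of cholesterol synthesis, Nsg2 (0.025), a neuronal endosomal protein, and D030068K23Rik (0.028). Nsdhl was at 17.4, 19.6 and 20.2 CPM ad libitum against 23.4, 22.7 and 22.1 CPM under fasting, in the same order of libraries as Sesn1. These likenesses are given as a description.

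Further genes were read from 10 lists with 131 genes outside the 10 members, all of which were tested. Of the lists, 7 hold AMPK and mTOR machinery, and 3 hold target genes of ATF4, of p53 and of glucocorticoids. Of these, 3 rose and 0 fell (edgeR adjusted p below 0.05), where 0.147% and 0.351% of all genes did, and the median log2 fold change was 0.03. The lists were chosen with earlier results of these data known, so the shares are a description and not an independent comparison. The 3 genes were Slc7a5, Cdkn1a and Zbtb16, and all belong to lists of transcriptional targets rather than to the AMPK or mTOR machinery. In the 7 lists of that machinery 0 genes were called.

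Slc7a5 (ENSMUSG00000040010), the light chain of the transporter that brings leucine into cells, rose under fasting. It was at 59.6, 58.0 and 62.3 CPM ad libitum against 80.1, 77.0 and 77.5 CPM under fasting. The groups were well apart, with a log2 fold change of 0.38 (SE 0.05, adjusted p = 0.0422 by edgeR), or 1.30-fold. It was 1 of 18 ATF4 target genes called, and the list as a whole had a median of -0.11 with 12 members below 0, so Slc7a5 did not move with its list. The call ended with limma-voom (adjusted p = 0.0541), without robust shrinkage (edgeR adjusted p = 0.0503) and when any library other than ad libitum replicate 1 was left out, where the highest edgeR adjusted p was 0.287, while its log2 fold change stayed between 0.35 and 0.41.

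Cdkn1a (ENSMUSG00000023067), the cell cycle inhibitor p21 and a target of both p53 and the glucocorticoid receptor, rose from 9.53, 12.6 and 9.60 CPM to 24.6, 20.5 and 23.7 CPM (log2 fold change 1.12 with SE 0.13, adjusted p = 0.0422 by edgeR). It was the only gene called of 12 p53 targets, whose median was -0.07, with 4 above 0 and 8 below 0. The cause of the rise in Cdkn1a was not tested. Zbtb16 (ENSMUSG00000066687), a zinc finger transcription factor induced by glucocorticoids, rose from 19.7, 27.1 and 23.7 CPM to 57.4, 48.1 and 61.3 CPM (log2 fold change 1.24 with SE 0.14, adjusted p = 0.0422 by edgeR). Of 16 glucocorticoid-responsive genes these 2 were called, 14 were above 0 and the median was 0.25, a direction already known in these data when the list was drawn up. Ddit4, itself inducible by glucocorticoids, had its lowest fasting value in replicate 2, as did Zbtb16 and Cdkn1a. Whether these 3 genes share a cause was not tested. The calls of Zbtb16 and Cdkn1a ended without ad libitum replicate 3, fasting replicate 1 or fasting replicate 3, where the highest edgeR adjusted p was 0.287 for each. Without robust shrinkage both were at an edgeR adjusted p of 0.0503.

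**Figure D5:**
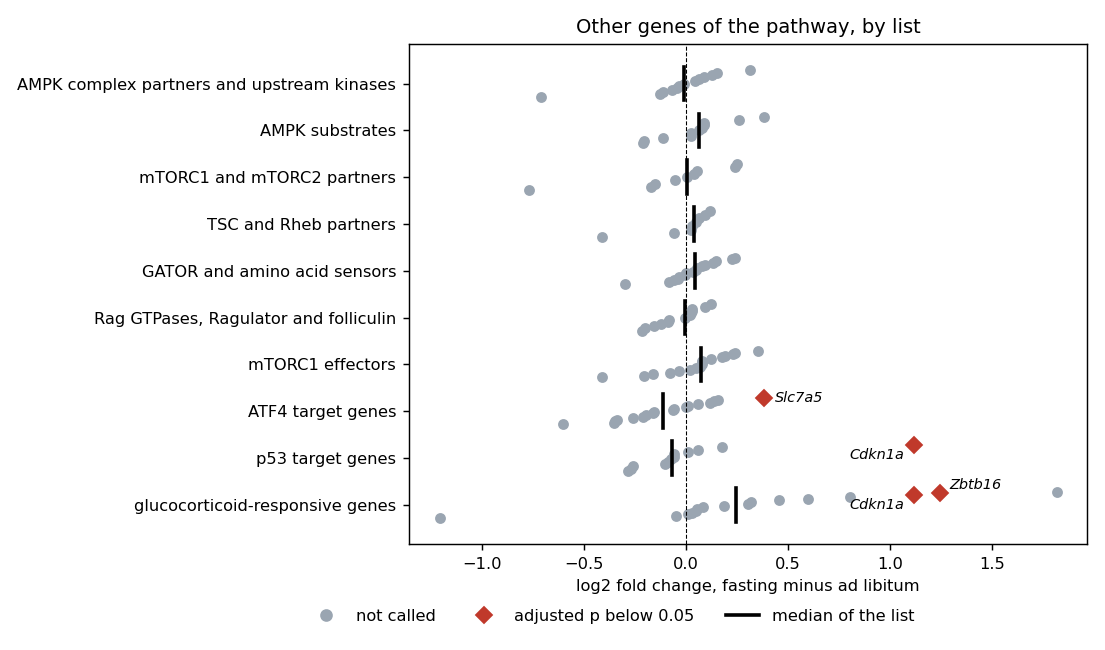
Log2 fold change, fasting minus ad libitum (horizontal axis), of each gene in 10 lists (rows), with red diamonds for genes at an edgeR adjusted p below 0.05, grey points for the others and black bars for list medians. Medians lie between -0.11 and 0.25, and the called genes are Slc7a5, Cdkn1a, which is in 2 lists, and Zbtb16.

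Among the partners and upstream kinases of AMPK, 0 of 13 were called and the median was -0.01. Stk11, which encodes LKB1, the main kinase that activates AMPK, was at 61.7 ± 0.712 CPM ad libitum and 56.5 ± 2.12 CPM under fasting (SD, n = 3 each, log2 fold change -0.13, edgeR adjusted p = 0.214), and its pseudokinase partner gene Strada was at 0.15 (edgeR adjusted p = 0.262). The 11 genes for AMPK substrates had a median of 0.07 with 0 called. Tbc1d4, a regulator of glucose transporter traffic, was at -0.21 (edgeR adjusted p = 0.242).

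The list of partners of the mTOR complexes, which holds subunits and the assembly factors Tti1, Telo2 and Tti2, had 9 genes, with 0 called and a median of 0.00. Prr5l, an mTORC2 partner, came closest of any gene in the machinery lists. It was at 41.6, 49.99 and 40.4 CPM ad libitum against 22.3, 29.6 and 25.7 CPM under fasting, a clear separation, with a log2 fold change of -0.77 (SE 0.13, adjusted p = 0.0599 by edgeR). Mapkap1, which encodes the mTORC2 subunit SIN1, was at -0.17 (edgeR adjusted p = 0.154). Of 8 genes around TSC and Rheb 0 were called and the median was 0.04. Akt2, a kinase that relays insulin signals to TSC, was at 54.1 ± 6.53 and 40.7 ± 0.434 CPM (SD, n = 3 each, log2 fold change -0.41, edgeR adjusted p = 0.0785), and Tbc1d7, the third TSC subunit, was at 0.12 (edgeR adjusted p = 0.396). Prr5l, Mapkap1 and Akt2 had their highest level in ad libitum replicate 2, as did Stk11 and, of the genes below, Kptn, Lamtor1 and Tfeb. Tbc1d4 and Slc38a9 were highest in ad libitum replicate 1. The summed oligodendrocyte and microglial markers were also highest in ad libitum replicate 2, and their part in these values was not tested.

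The amino acid branch was mixed in direction. Of 16 genes for GATOR complexes and amino acid sensors, 10 were above 0 and 0 were called. Nprl3, a GATOR1 subunit, was at 24.2 ± 1.05 and 28.5 ± 0.613 CPM (SD, n = 3 each, log2 fold change 0.24, edgeR adjusted p = 0.0962), and Kptn, a subunit of the KICSTOR complex that anchors GATOR1, was at -0.30 (edgeR adjusted p = 0.129). Of 13 genes for Rag GTPases, Ragulator and folliculin 0 were called. Slc38a9, the lysosomal arginine sensor, was at -0.22 (edgeR adjusted p = 0.1002) and the Ragulator gene Lamtor1 at -0.15 (edgeR adjusted p = 0.165). Of 18 mTORC1 effectors 13 were above 0, 0 were called and the median was 0.08. Tfeb, the lysosomal transcription factor that mTORC1 holds in the cytoplasm, was at -0.41 (edgeR adjusted p = 0.0798), and Eif4b, a translation initiation factor, at 214 ± 10.2 and 253 ± 6.60 CPM (SD, n = 3 each, log2 fold change 0.24, edgeR adjusted p = 0.0966).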

How the data were processed

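Polyadenylated RNA of 6 libraries was measured. The table that the authors deposited holds estimated counts, as whole numbers without scaling between libraries. The tools named in the submitters' processing notes are Salmon and, at version 1.40.2, DESeq2, and the build is GRCm39 (mm39); their roles are not stated in the sources used here. Libraries were grouped by their labels. No pair within a group agreed within counting noise (smallest chi-square per degree of freedom 8.19), and 0 columns were left unused. Genes were filtered with filterByExpr (19109 kept), scaled with TMM factors and tested with edgeR 4.0.16, by its quasi-likelihood test (R 4.3.3, robust shrinkage, no covariate), with Benjamini-Hochberg adjustment over all genes. Levels are CPM after TMM scaling, log2 CPM has a prior count of 2, and standard errors are the log2 fold change over the square root of F. DESeq2 1.42.0 (without the filter) and limma-voom (limma 3.58.1) were alternatives, with other scalings, filters, shrinkage, a replicate block and each library left out. Ratios were tested by exact permutation. The fits were tested on simulated data, where every recovered change had the right sign and the share of false calls was above the nominal rate with each tool, most with DESeq2. The members and lists were chosen with earlier results of these data known. Named genes were the members, the called genes of each list or its 2 of smallest p, the 3 genes most like the 2 members of smallest p, and ratio partners; 1 gene that this rule names is not reported here. The genes in the closing observations were chosen after their values were seen. Transcript lengths and shared 31-base words came from GENCODE M21, whose build, GRCm38, is not that of the counts.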

Additional observations from a re-analysis of the deposited data

How the results depend on the processing

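Fasting against ad libitum feeding gave 95 called genes, 28 higher and 67 lower, and this number moved with the settings, with 1395 by DESeq2 without the low-count filter, 32 by limma-voom, 9 without robust shrinkage and 285 with the replicate block. Leaving out 1 library gave between 0 (fasting replicate 1 or 3) and 1187 (ad libitum replicate 1) calls, with 45 without ad libitum replicate 2 and 1 without ad libitum replicate 3. Where 0 genes were called by edgeR, an unadjusted p below 0.05 was reached by 2452 genes without fasting replicate 1 and 2495 without fasting replicate 3. The number of members called was 1 by DESeq2 and 0 in all other alternatives, the 6 fits without a library included. Of the other genes in the lists of machinery and target genes, 15 were called by DESeq2, 0 without robust shrinkage, and between 0 and 10 with 1 library left out. The cause was not tested.

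With 1 library left out, values that changed sign ran from -0.037 to 0.040 for Prkaa1, -0.011 to 0.25 for Prkaa2, -0.025 to 0.026 for Tsc2, -0.059 to 0.082 for Sesn2 and -0.041 to 0.22 for Deptor. Tsc2 was also at -0.0012 with upper-quartile factors and at -0.00061 with a mean count of at least 50. Mtor, Rptor, Tsc1, Ddit4 and Sesn1 kept their sign in all 14 alternatives. Log2 ratio differences that changed sign ran from -0.031 to 0.30 for Prkaa2 to Prkaa1, -0.022 to 0.031 for Rptor to Mtor, -0.094 to 0.028 for Rictor to Rptor and -0.11 to 0.14 for Deptor to Mtor. The labels number the libraries 1 to 3 in each diet, and deviations of same-numbered libraries correlated at 0.30, -0.05 and -0.19. Those of differently numbered libraries correlated at -0.22 to 0.31. These values show no pairing by number, but with 3 libraries per diet they cannot exclude it. With the replicate block 0 members were called, Ddit4 was at 0.38 (edgeR adjusted p = 0.1001), Prr5l was called (edgeR adjusted p = 0.0261) and Zbtb16 was not (edgeR adjusted p = 0.0543). The lowest count of any member in any library was 746, and 3 libraries per diet limit the precision.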

Other observations

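Ddit4l, the paralog of Ddit4 and a gene of the glucocorticoid-responsive list, lay in the opposite direction. It was at 2.79, 6.53 and 4.62 CPM in the ad libitum replicates against 1.84, 2.06 and 2.13 CPM in the fasting replicates. All fasting libraries were below all ad libitum libraries, with a log2 fold change of -1.21 (SE 0.30, adjusted p = 0.1002 by edgeR). DESeq2 called it (adjusted p = 0.0055), and without ad libitum replicate 2, its highest library, the log2 fold change was -0.89 (edgeR adjusted p = 0.141).

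Slc3a2, the heavy chain that pairs with Slc7a5 in the leucine transporter, was at 91.5, 95.5 and 92.3 CPM ad libitum against 107, 98.8 and 102 CPM under fasting. The groups did not overlap, and the log2 fold change of 0.14 (SE 0.05, adjusted p = 0.209 by edgeR) was smaller than the 0.38 of Slc7a5.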
